A study of Mus musculus with 4 samples.

Results

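Heat shock chaperones were followed in colonic epithelial cells of mice with acute colitis. The set held the 10 genes Hsf1, Hspa1a, Hspa1b, Hspa8, Hspb1, Dnajb1, Hsp90aa1, Hsp90ab1, Hsph1 and Hspe1. They were chosen by symbol from their known roles, with earlier results of these data known. All 10 were found among the 16015 genes that the table lists. Each was measured by bulk RNA sequencing in 4 libraries, 1 per mouse, from 2 control mice and 2 mice labelled Bmal1 cKO. The control mice, whose label reads WT, carried floxed Bmal1 alleles (Bmal1 fl/fl) and no Cre. The Bmal1 cKO mice were Villin-CreERT2; Bmal1 fl/fl, in which the villin promoter drives a tamoxifen-activated Cre in the intestinal epithelium. Tamoxifen was injected intraperitoneally on 5 consecutive days, and the sources used here do not say whether the control mice received it. All mice were C57BL/6, 2 to 4 months old, and drank 3% dextran sodium sulfate (DSS), which injures the colonic lining, for 5 days and then water for 2 days before collection on day 7. The study's crypt protocol loosened crypts with EDTA and scraped them off through a strainer, with no sort for epithelial cells.

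Heat shock proteins bind unfolded polypeptides and help them to fold, to be held or to be degraded. In unstressed cells HSF1 is kept inactive by chaperones; when damaged protein draws these away, HSF1 trimerizes and binds heat shock elements, inverted repeats of the unit nGAAn, upstream of its target genes. HSP70 works with J-domain partners that deliver substrates and with exchange factors that release them, HSP90 takes over late-folding clients such as kinases and receptors, small heat shock proteins hold aggregating proteins, and the HSP60 and HSP10 chaperonin folds proteins in mitochondria.

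The targeted gene did not pass the test. Arntl, the symbol the table uses for Bmal1, had 358 and 342 normalized counts among the controls, against 341 and 289 under the Bmal1 cKO label, so the groups did not overlap but lay close together. The log2 difference was -0.16 with a standard error of 0.144 and a limma adjusted p of 0.389. The region that Cre removes cannot be read from values per gene, so every direction given here is that of the libraries as labelled. Depth lay between 10312791 and 14156639 reads per library, counted over the listed genes. Markers of other cells differed strongly: leukocyte markers summed to 28061 and 33517 in the control libraries and to 5913 and 5530 in the cKO-labelled ones, and 19 of 25 tested were lower (15 without control library 1, 21 without control library 2, 9 and 10 without cKO-labelled library 1 and 2). The controls differed in kind of leukocyte marker, as Jchain had 7216 and 59.3 normalized counts and S100a8 had 1424 and 8066. Ly6g alone had 2918 and 2549 of the cKO-labelled sums. Epithelial markers summed to 205406 and 288982 against 169127 and 194203. Most of the fall in this sum lay in the goblet cell genes Muc2 (62753 and 101737 against 24129 and 37690) and Tff3 (11848 and 25286 against 3010 and 3099). Of the 15 epithelial markers, 5 were lower and 3 higher, or 3 lower and 5 higher with the correction. The 3 higher calls became 0 without either cKO-labelled library, and the 5 lower calls 7 without control library 1. Epcam, present in all epithelial cells, had a log2 difference of -0.00 (limma adjusted p = 0.984). Other broad epithelial markers did not all stay level. Krt18 (-1.39) and Cdx2 (-1.47) were called lower, though not with the correction. Cdh1 and Vil1 (-0.44 each), Krt8 (0.16) and Krt19 (-0.14) were not called, but Krt8 and Krt19 were called higher with the correction. Members that mark subtypes ranged from -3.62 in Chga (enteroendocrine cells) to 2.79 in Lgr5 (stem cells). In bulk RNA, fewer cells of a type and less RNA per cell cannot be told apart. The difference between groups also ran with base composition, since the median log2 difference was 1.13 in the tenth of genes with the lowest GC content in their exons and -1.40 in the tenth with the highest. Spearman's rho of the log2 difference with GC content was -0.618 across 13975 genes of the same 4 libraries, against 0.01 between the control mice and -0.12 between the cKO-labelled mice. A second value is therefore given for each gene, from a fit in which each library was first corrected for GC content and exon length.

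The chaperones moved in both directions. Of the 10 genes, 5 were higher in the cKO-labelled libraries, namely Hspa1b, Hsph1, Hsp90aa1, Hspa8 and Hspe1, and 3 were lower, namely Hspb1, Hsf1 and Dnajb1, each with a limma adjusted p under 0.05. Hspa1a and Hsp90ab1 did not pass. All 10 had a mean of at least 10 normalized counts and entered the test. Among the 13983 genes tested, 29.0% were called higher, 27.7% lower and 56.7% either way, so calls were common in this comparison. For all 10 genes both cKO-labelled libraries lay on the same side of both control libraries, 7 above and 3 below; among all tested genes 40.3% lay above, 41.7% below and 82.1% either way. The median log2 difference was 0.37 over the chaperones and -0.04 over all tested genes. The 5 higher calls became 2 without control library 1, 3 without control library 2, 4 without cKO-labelled library 1 and 3 without cKO-labelled library 2, and the 3 lower calls became 2, 2, 2 and 3 in the same order. With the correction, 4 were higher (Hspa1b, Hsph1, Hspa8 and Hsp90aa1) and 2 lower (Hspb1 and Hsf1), against 17.8% and 17.0% of all genes, or 34.8% either way.

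**Figure D1:**
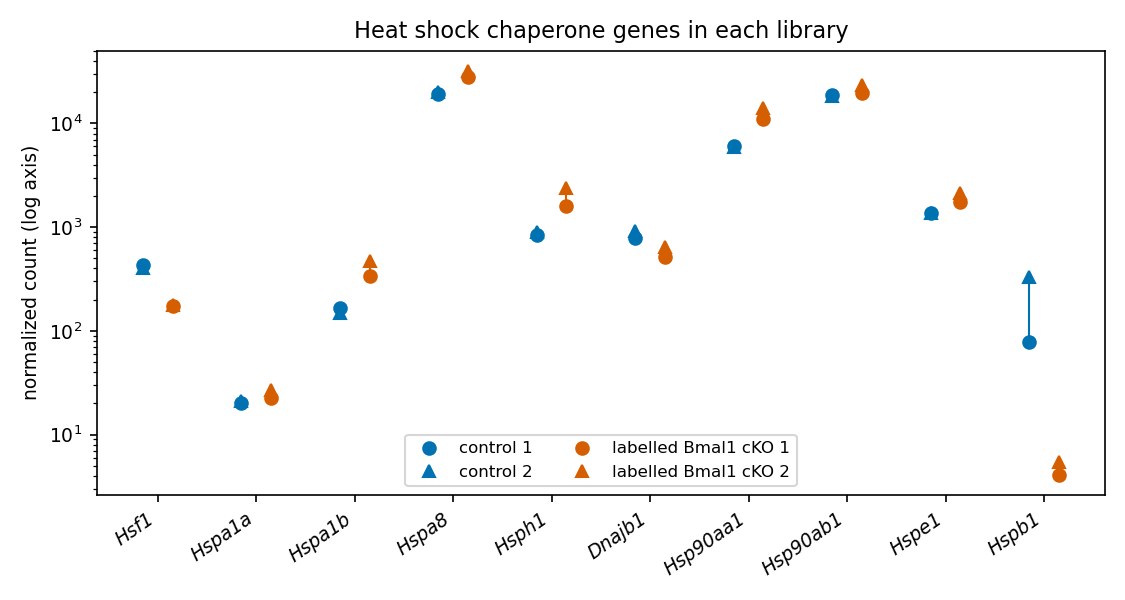
Normalized counts on a log axis for each of the 10 chaperone genes, with circles and triangles for mice 1 and 2 of each group, control in blue and cKO-labelled in orange, and a line joining the mice of a group. Hspa1b, Hsph1 and Hsp90aa1 sit higher in orange, while Hspb1 falls from 77.7 and 332 to 4.11 and 5.41.

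Hspa8, Hsp90ab1 and Hsp90aa1 made up most of this chaperone RNA. Together they held 91.6% to 93.1% of the reads of the 10 genes in the 4 libraries. The 10 genes took 0.411% and 0.407% of all reads on listed genes in the control libraries and 0.461% and 0.541% in the cKO-labelled ones. Per kilobase of exon, mean levels in the control libraries fell in the order Hsp90ab1 (6245 normalized counts per kilobase), Hspa8 (4598), Hsp90aa1 (1515), Hspe1 (927), Dnajb1 (266), Hspb1 (199), Hsph1 (119), Hsf1 (58.9), Hspa1b (56.3) and Hspa1a (6.99). Hsf1 and Hspa1b did not differ beyond the spread of the mice, and the place of Hspb1 is loose because its control libraries lay far apart. In the cKO-labelled libraries Hsp90ab1 (7184 per kilobase) and Hspa8 (7001) were level within the spread of the mice, Hsp90aa1 reached 3186, Hsph1 (275) stood above Dnajb1 (181), and Hspb1 (4.62) was last.

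Hsf1, the transcription factor that drives the heat shock response, was lower in the cKO-labelled libraries. The gene (ENSMUSG00000022556) lies on the forward strand at chr15:76477422-76501913 of GRCm38. Its normalized counts were 432 and 404 in the control libraries and 174 and 178 in the cKO-labelled ones. The groups were far apart and the mice within each group close together, with means of 418 ± 19.6 and 176 ± 3.24 (SD, n = 2). The log2 difference was -1.24 with a standard error of 0.137 (limma adjusted p = 0.00139), and -0.65 after the GC and length correction (limma adjusted p = 0.0218). It stayed called under all 16 alternatives tried, over a range of -1.47 to -0.65. Its exons have a GC content of 54.0%, above 76.0% of tested genes, and genes of the nearest composition class had a median log2 difference of -0.70 with quartiles of -1.33 and -0.21, so the uncorrected value of Hsf1 lies inside the range of its class. The profiles most like that of Hsf1, by Euclidean distance of centred log2 values over the 4 libraries searched over 9982 genes averaging at least 100 normalized counts, were those of Mrpl14 (distance 0.0305), Sf3b2 (0.034) and Mvb12a (0.0405). HSF1 activity is set by trimer formation and modification of the protein, which RNA counts do not measure.

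Hspa1b, one of a pair of stress-inducible HSP70 genes, rose in the cKO-labelled libraries. It lies on the reverse strand at chr17:34956436-34959238 (ENSMUSG00000090877). Its normalized counts were 166 and 150 in the control libraries and 336 and 468 in the cKO-labelled ones, which were apart from the controls and also from each other. The mean was 2.55-fold higher, and the log2 difference was 1.33 with a standard error of 0.205 (limma adjusted p = 0.00391). Hspa1b did not follow the trend with composition. Its exons are GC-rich at 58.1%, and genes of that class had a median log2 difference of -1.20 with quartiles of -1.83 and -0.64. With the correction the log2 difference of Hspa1b grew to 2.44 (limma adjusted p = 0.00364), and it stayed called under all 16 alternatives, over 1.09 to 2.44.

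Hspa1a, its neighbour at chr17:34969190-34972156 on the same strand (ENSMUSG00000091971), was close to the bottom of the measurable range. It had 24 and 25 reads in the control libraries and 22 and 20 in the cKO-labelled ones, which are 20.3, 21.2, 22.6 and 27.0 normalized counts. The log2 difference was 0.24 with a 95% interval of -0.87 to 1.36 (limma adjusted p = 0.657), so a change of the size seen in Hspa1b was within that interval. With the correction it was 1.48 (limma adjusted p = 0.0548). The profiles nearest to Hspa1a among 9983 genes were those of Tmem251 (distance 0.0368), Tm2d1 (0.0436) and Gcdh (0.0467).

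The copies share much of their sequence, so their reads are hard to keep apart. Of all stretches of 150 bases in the transcripts of Hspa1a, 46.0% also occur in other genes, mostly in Hspa1b, and 40.5% of those of Hspa1b do. How reads that fit both copies were counted is not given in the sources used here. The summed pair avoids the split between them, though not reads lost from both. Hspa1a plus Hspa1b had 186 and 171 normalized counts in the control libraries and 359 and 495 in the cKO-labelled ones, with no overlap. The log2 difference of the sum was 1.24 with a standard error of 0.197 (limma adjusted p = 0.00432), and 2.41 with the correction (limma adjusted p = 0.00362). The normalized count of the pair was 0.963% and 0.845% of that of Hspa8 in the control libraries and 1.28% and 1.54% in the cKO-labelled ones.

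The sequences before these genes are shown because they carry the letters that HSF1 reads. RefSeq promoter windows on GRCm38.p6, from 250 bases before to 50 bases after an annotated start, were found for 6 of the 10 genes; Hsf1, Hspa8, Hsp90aa1 and Hsp90ab1 had none in that table. Each window was searched on both strands for GAANNTTC and TTCNNGAA, each a pair of facing units, for a 3-unit run in which a GAANNTTC and a TTCNNGAA share a unit, in either order, and for the E-box CACGTG that BMAL1 binds with CLOCK. The 8-letter forms overlap inside a 3-unit run. Among 32851 windows of 300 bases, 7.86% held GAANNTTC, 8.52% held TTCNNGAA, 15.1% held either, 0.603% held the 3-unit run and 7.15% held CACGTG. The 250 bases before the starts of Hspa1a (chr17:34972157-34972406) and Hspa1b (chr17:34959239-34959488), both read on the reverse strand, are given 5′ to 3′ with the matches to GAANNTTC in capitals.
Hspa1a: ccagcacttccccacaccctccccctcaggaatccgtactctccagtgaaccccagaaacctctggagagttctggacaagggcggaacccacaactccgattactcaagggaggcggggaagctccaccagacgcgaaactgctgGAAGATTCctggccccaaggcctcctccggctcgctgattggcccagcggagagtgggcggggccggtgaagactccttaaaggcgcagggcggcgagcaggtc
Hspa1b: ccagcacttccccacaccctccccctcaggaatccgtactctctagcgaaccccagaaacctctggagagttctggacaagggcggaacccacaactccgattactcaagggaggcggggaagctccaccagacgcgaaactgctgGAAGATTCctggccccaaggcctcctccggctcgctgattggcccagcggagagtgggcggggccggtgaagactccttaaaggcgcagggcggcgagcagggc
The copies are identical at 247 of these 250 bases, and each holds GAAGATTC from position -104 to -97, counted back from the start. A match in letters is a description of the sequence and no measure of binding.

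Hspa8 encodes HSC70, the constitutive HSP70 of the cytosol, and was among the most abundant of the set. Its normalized counts were 19292 and 20258 in the control libraries and 28099 and 32124 in the cKO-labelled ones. Both cKO-labelled libraries were above both controls, with a mean 1.52-fold higher and a log2 difference of 0.60 with a standard error of 0.147 (limma adjusted p = 0.0183). The correction left it at 0.60 (limma adjusted p = 0.029), its GC content being near the middle at 49.7%. The call was lost when any 1 library was left out, with log2 differences of 0.51 to 0.70 and limma adjusted p of 0.0657 to 0.185, and under scaling by the total of listed genes, at 0.38. Hspa8 (ENSMUSG00000015656, chr9:40800984-40810087, forward strand) has processed copies elsewhere in the genome, and 23.0% of its stretches of 150 bases occur in other genes.

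Hsph1 encodes the HSP110 chaperone that acts as a nucleotide exchange factor for HSP70, and it rose. The gene (ENSMUSG00000029657) lies on the reverse strand at chr5:149614287-149636376. Its normalized counts were 836 and 899 in the control libraries and 1594 and 2403 in the cKO-labelled ones. Both cKO-labelled libraries were above the controls and lay further from each other than the controls did. The mean was 2.31-fold higher and the log2 difference 1.17 with a standard error of 0.202 (limma adjusted p = 0.0056), or 0.80 with the correction (limma adjusted p = 0.033). The call was kept in 15 of 16 alternatives and lost without control library 1, at 1.12 (limma adjusted p = 0.0607). No stretch of 150 bases of Hsph1 occurs in another gene. Its TTCNNGAA match is shown in capitals within 30 bases at chr5:149636351-149636380, read on the reverse strand, a stretch in which transcript models of Hsph1 begin.
Hsph1: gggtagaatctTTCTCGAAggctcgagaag
This window also holds the 3-unit run TTCTGGAAAGTTC at positions 37 to 49 after the start, and the E-box CACGTG at positions 3 to 8. Counted from a second annotated start of Hsph1, the same E-box lies at positions -19 to -14. The windows of the other 5 genes held no CACGTG.

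Dnajb1, the J-domain protein HSP40 that delivers substrates to HSP70, was lower. It had 785 and 917 normalized counts in the control libraries and 513 and 643 in the cKO-labelled ones, with no overlap. The log2 difference was -0.56 with a standard error of 0.153 (limma adjusted p = 0.0264). With the correction it was -0.03 (limma adjusted p = 0.89), and genes near its GC content of 53.9% had a median of -0.70. The call was also lost without control library 1 at -0.67 (limma adjusted p = 0.0694), without control library 2 at -0.45 (0.143) and without cKO-labelled library 1 at -0.40 (0.123). Dnajb1 (ENSMUSG00000005483, chr8:83608193-83612653, forward strand) shares no 150-base stretch with other genes, and neither of its promoter windows held a match to the letters searched.

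The ratios of Hspa8 to its partners are given as a description. The ratio of Hspa8 to Dnajb1 normalized counts was 24.6 and 22.1 in the control libraries and 54.7 and 49.9 in the cKO-labelled ones. The ratio of Hspa8 to Hsph1 was 23.1 and 22.5 against 17.6 and 13.4. These ratios are not corrected for GC content, were read from the same values as the single genes and were not tested. With the correction the log2 differences were 0.60 for Hspa8, 0.80 for Hsph1 and -0.03 for Dnajb1, with standard errors of 0.143, 0.199 and 0.16, so those of Hspa8 and Hsph1 lay within their errors of each other.

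Of the HSP90 genes, 1 passed the test. Hsp90aa1, the stress-inducible HSP90 alpha, had 6029 and 5884 normalized counts in the control libraries and 11011 and 14036 in the cKO-labelled ones, all above the controls. Its mean was 2.10-fold higher and its log2 difference 1.06 with a standard error of 0.145 (limma adjusted p = 0.0026). The correction brought this to 0.55 (limma adjusted p = 0.0309), its exons having a GC content of 45.5%, and it stayed called under all 16 alternatives, over 0.55 to 1.24. The gene (ENSMUSG00000021270) lies on the reverse strand at chr12:110690605-110702728, and 28.5% of its 150-base stretches occur in other genes, mainly processed copies.

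Hsp90ab1, the constitutive HSP90 beta, had 18900 and 18560 normalized counts in the control libraries and 19681 and 23408 in the cKO-labelled ones. Both cKO-labelled libraries were above the controls, the first by little. The log2 difference was 0.20 with a 95% interval of -0.17 to 0.56 (limma adjusted p = 0.29), and 0.33 with the correction (limma adjusted p = 0.127). Its sign turned with scaling by the total of the listed genes (-0.03) and with quantile normalization (-0.16). The gene (ENSMUSG00000023944) lies on the reverse strand at chr17:45567775-45573271. The ratio of Hsp90aa1 to Hsp90ab1 per kilobase was 0.243 and 0.242 in the control libraries and 0.427 and 0.457 in the cKO-labelled ones. This ratio is not corrected for GC content and was not tested. With the correction the log2 differences of the genes, 0.55 and 0.33 with standard errors of 0.135 and 0.142, lay closer together.

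Hspe1 encodes HSP10, the lid of the mitochondrial chaperonin. Its normalized counts were 1369 and 1363 in the control libraries and 1732 and 2137 in the cKO-labelled ones, which lay above the controls. The log2 difference was 0.49 with a standard error of 0.124 (limma adjusted p = 0.0204), and 0.23 with the correction (limma adjusted p = 0.143). It was called in 9 of 16 alternatives. The call was lost without control library 1 at 0.50 (limma adjusted p = 0.0995), without control library 2 at 0.49 (0.0969) and without cKO-labelled library 2 at 0.34 (0.0772). Hspd1, the HSP60 barrel that Hspe1 caps, had 7554 and 7755 against 8933 and 9537 normalized counts, a log2 difference of 0.27 (limma adjusted p = 0.0692). The genes stand head to head: Hspe1 (ENSMUSG00000073676, chr1:55088132-55091307, forward strand) overlaps the start of Hspd1 on the other strand by 112 bases, and without a known strand setting those reads cannot be told apart. A run of matches before the start of Hspe1 is shown in capitals within 30 bases at chr1:55088053-55088082 on the forward strand, inside an exon of some Hspd1 transcript models.
Hspe1: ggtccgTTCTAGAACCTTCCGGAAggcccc
It runs from position -89 to -72 and joins 2 overlapping 3-unit runs, TTCTAGAACCTTC and GAACCTTCCGGAA.

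**Figure D2:**
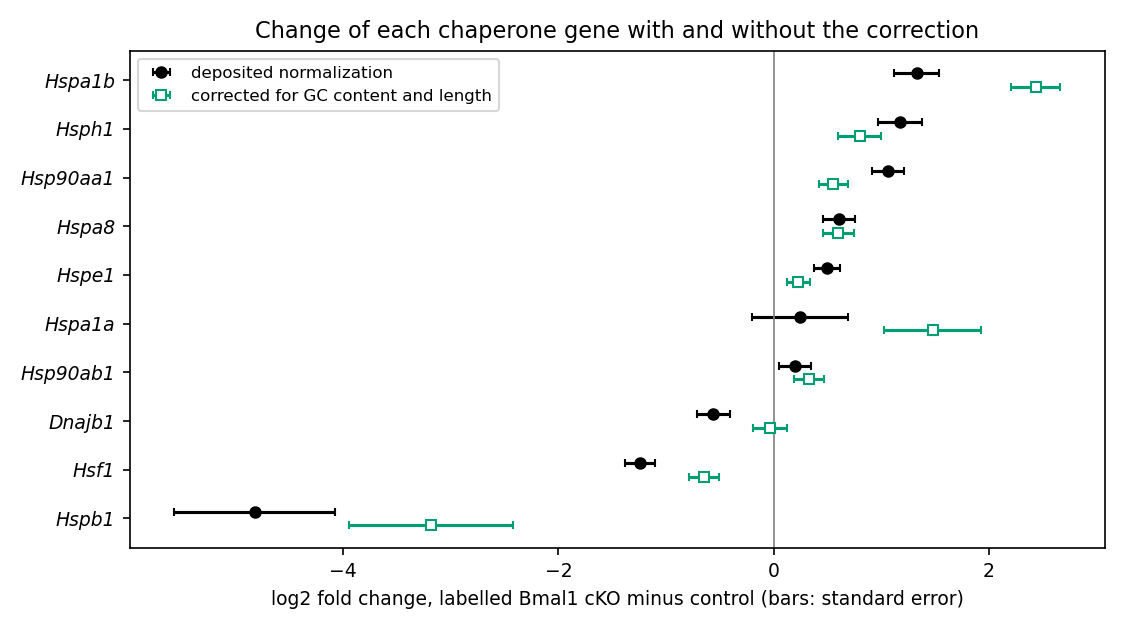
Log2 fold change of each of the 10 genes, cKO-labelled minus control, with bars of 1 standard error, as black circles for the deposited normalization and open green squares after the GC and length correction. Hspa1b moves from 1.33 to 2.44, Dnajb1 from -0.56 to -0.03 and Hspb1 from -4.82 to -3.18.

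Hspb1, the small heat shock protein HSP25, had the largest difference of the 10. It holds unfolding proteins without ATP, and it is abundant in muscle as well as in stressed epithelium. The normalized counts were 77.7 and 332 in the control libraries and 4.11 and 5.41 in the cKO-labelled ones, which rest on 92, 392, 4 and 4 reads. The groups did not overlap, but the control mice differed from each other several-fold. The ratio of the group means was 43.0, and the log2 difference was -4.82 with a 95% interval of -6.70 to -2.94 (limma adjusted p = 0.00398). This log2 difference was -5.86 without control library 1 and -3.78 without control library 2. With the correction it was -3.18 (limma adjusted p = 0.0291), its exons being GC-rich at 61.2%, above 98.6% of tested genes. It stayed called under all 16 alternatives, over -5.86 to -3.18. Of its 150-base stretches, 39.1% occur in other genes, including the pseudogene Hsp25-ps1. The gene (ENSMUSG00000004951) lies on the forward strand at chr5:135887919-135889563, and the 250 bases before it, at chr5:135887669-135887918, hold 2 matches to GAANNTTC, in capitals.
Hspb1: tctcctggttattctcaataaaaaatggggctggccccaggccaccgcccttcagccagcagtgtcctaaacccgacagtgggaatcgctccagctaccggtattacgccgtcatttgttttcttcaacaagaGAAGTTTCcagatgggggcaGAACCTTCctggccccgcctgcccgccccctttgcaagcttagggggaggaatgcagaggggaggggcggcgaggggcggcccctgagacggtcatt
They lie at positions -117 to -110 and -97 to -90.

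The other small heat shock proteins moved the same way at low counts. All 4 of the 8 on the list that could be tested were lower, and they are named here after their values were seen. Hspb6, abundant in smooth and cardiac muscle, had 62.5 and 99.95 normalized counts in the control libraries and 23.7 and 13.5 in the cKO-labelled ones (limma log2 difference -2.08, adjusted p = 0.0135). Hspb8, a partner of Bag3 in selective autophagy, had 56.6 and 50.8 against 4.11 and 2.70 (limma log2 difference -3.65, adjusted p = 0.00384). Hspb7 had 54.9 and 9.32 normalized counts in the control libraries and 0 in both cKO-labelled ones, and Cryab, the alpha B crystallin, had 32.9 and 15.2 against 0 and 1.35. Set against a floor of 3 reads per library, Hspb7 was at least 8.99-fold lower and Cryab at least 6.75-fold lower. Without control library 1 these bounds were 2.61-fold and 4.27-fold, and without control library 2 they were 15.4-fold and 9.23-fold. The median log2 difference of the 4 was -3.79 as fitted and -2.96 with these genes at their bound. With quantile normalization 1 of the 4 was called, and also 1 with the replicate block and the correction together. The 4 calls became 4 without control library 1, 3 without control library 2, 2 without cKO-labelled library 1 and 1 without cKO-labelled library 2, and 2 with the correction (Hspb8 and Cryab).

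Markers of stromal, muscle, endothelial and red blood cells were lower in the same libraries as the small heat shock proteins. Of 20 such markers 17 were lower and all 20 had a negative log2 difference, with a median of -3.83. The 17 became 13 without control library 1, 18 without control library 2 and 10 without either cKO-labelled library. They summed to 19263 and 5756 in the control libraries and to 645 and 756 in the cKO-labelled ones. Myh11, which defines smooth muscle, had 302 and 296 normalized counts in the control libraries and 2.06 and 5.41 in the others. Col1a1, a fibroblast collagen, had 1719 and 408 against 34.97 and 28.4. Every marker of the 20 had reads in at least 1 cKO-labelled library. Between the control mice, 17 of the 20 markers were higher in library 1, as Hspb7 and Cryab were, and Hspb8 by little (67 and 60 reads). The other 3, Des, Cnn1 and Tagln, were higher in library 2, as Hspb1 and Hspb6 were. Des had 182 and 275 normalized counts in the control libraries and Cnn1 had 117 and 398, while Tagln had only 14 and 16 reads. Other muscle genes were among the 17, such as Acta2 (957 and 610 normalized counts) and Myh11. Of 15 epithelial markers, 14 were also higher in control library 2. Erythroid markers were lower as well, 5 of 5, with sums of 1348 and 2033 in the control libraries and 19.5 and 17.6 in the cKO-labelled ones, a median log2 difference of -6.22, and all 5 higher in control library 2. The part of any of these cells in the differences of the small heat shock proteins was not tested.

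Immediate early genes, which respond within minutes to stress or tissue dissociation, were also lower. Of 21 measured, 15 were lower and 1 was higher (lost without control library 1 or cKO-labelled library 1), with a median log2 difference of -2.39. With the correction 11 were lower and 1 higher, with a median of -1.47. The higher call was then on another gene: Klf6 went from 0.50 to -0.31 and was no longer called, and Ier2 turned from a lower call at -1.16 to a higher one at 0.42 (limma adjusted p = 0.0446). Their summed normalized counts were 24717 and 28373 in the control libraries and 12005 and 13909 in the cKO-labelled ones. Hspa1b, which is also known to respond to handling, and the other chaperones called higher moved in the opposite direction to most of this list. Hspb1 (-4.82), Hsf1 (-1.24) and Dnajb1 (-0.56, or -0.03 with the correction) moved in the same direction as most of it. The part of tissue handling in the chaperone values was not tested.

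**Figure D3:**
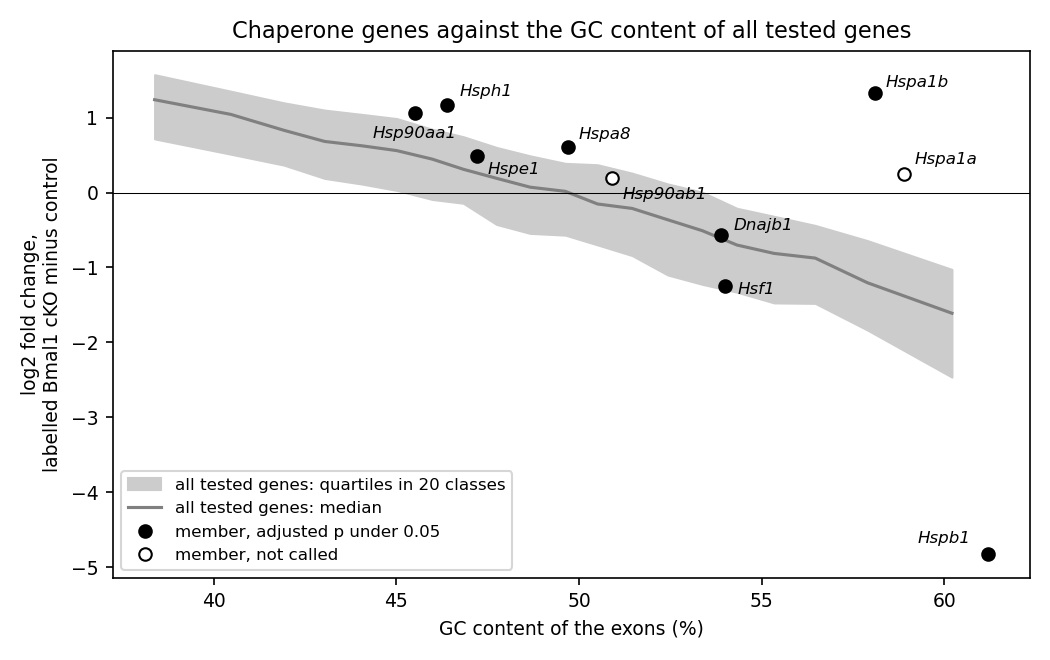
Log2 fold change, cKO-labelled minus control, against the GC content of the exons in percent, with the grey line and band for the median and quartiles of all tested genes in 20 classes and black or open points for chaperones called or not called. Hspa1b (1.33) and Hspa1a (0.24) sit above the band at its GC-rich end, Hspa8, Hsph1 and Hsp90aa1 lie above it, Hspb1 (-4.82) sits below it, and Hsf1, Dnajb1, Hsp90ab1 and Hspe1 lie inside it.

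The wider chaperone network held genes of both directions, as all tested genes did. Of 111 further genes on 10 lists, 107 were in the table and 103 were tested. Of these, 36.9% (38) were lower and 35.9% (37) higher, against 27.7% and 29.0% of all genes, with a median log2 difference of -0.03 against -0.04. With the correction 24.3% (25) were lower and 20.4% (21) higher, against 17.0% and 17.8%. The corrected calls were not all on the same genes: 18 of the lower and 15 of the higher calls were made both ways, and 6 genes were called in opposite directions (5.83%, against 1.98% of all tested genes). These 6, named after their values were seen, were Dnaja1 (limma log2 difference 0.38, -0.47 corrected) and Sugt1 (0.58, -0.36), which turned to lower, and Lonp1 (-0.31, 0.56), Ppp5c (-0.40, 0.62), Stub1 (-0.74, 0.55) and Unc45a (-0.49, 0.39), which turned to higher. The direction of these 6 is therefore not settled here. Members are named by the rule of largest change among called genes with a mean of at least 100.

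Among other HSP70 and HSP110 genes the largest rise was that of Hspa4l, another HSP110. It had 737 and 762 normalized counts in the control libraries and 2735 and 2864 in the cKO-labelled ones (limma log2 difference 1.90, or 0.82 with the correction). Hspa12a, a distant HSP70 relative, had a limma log2 difference of 1.04, or 1.23 with the correction. In that list of 6 tested genes 4 were higher and 2 lower. The 4 higher calls became 2 with the correction, 3 without control library 1 and 2 without any other library. The 2 lower calls became 0 with the correction, 1 without control library 2 and 0 without any other library. Of 19 other cytosolic J-domain proteins 6 were higher and 4 lower, and 2 to 3 and 1 to 2 with any 1 library left out. With the correction 1 was higher and 5 lower; of these 5, 2 were lower without it and Dnaja1 was higher without it. Dnajc13, an endosomal J-domain protein, had a limma log2 difference of 0.88 (0.49 corrected). Dnajc9, a histone-handling one, had -0.60 (-0.85 corrected, and not called without control library 1 or either cKO-labelled library). Dnajb4, closest in kind to Dnajb1, had 0.86, which turned to -0.07 with the correction and was not called without control library 2 or either cKO-labelled library.

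More co-chaperones were called lower than higher before the correction. Of all tested genes 27.7% were lower and 29.0% higher, or 17.0% and 17.8% with the correction. Of 11 co-chaperones of HSP70, 6 (54.5%) were lower and 3 (27.3%) higher. With the correction 2 (18.2%) were lower and 3 (27.3%) higher, of which 2 and 1 were called the same way without it. Bag3, which couples HSP70 to small heat shock proteins, had 594 and 704 normalized counts in the control libraries and 223 and 238 in the cKO-labelled ones (limma log2 difference -1.48, -0.65 corrected). Stip1, the HOP adaptor between HSP70 and HSP90, fell by 1.18 on the log2 scale (-0.96 corrected). Bag4 had a log2 difference of 1.64 (0.81 corrected) and St13, the HSP70-interacting protein HIP, 1.02 (0.15 corrected, limma adjusted p = 0.213).

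Of 19 co-chaperones of HSP90, 12 (63.2%) were lower and 7 (36.8%) higher. With the correction 6 (31.6%) were lower and 4 (21.1%) higher, of which 5 and 2 were called the same way without it. Cdc37, which brings kinases to HSP90, had 1630 and 1678 normalized counts against 598 and 588 (limma log2 difference -1.48, -1.32 corrected). Nudc had -1.38 (-0.38 corrected). Chordc1 had 813 and 696 against 2559 and 2937 (limma log2 difference 1.86), which became 0.32 and was no longer called with the correction (limma adjusted p = 0.0798). Cdc37l1, a relative of Cdc37, had 1.11 (0.31 corrected).

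The folding machines for cytoskeletal proteins were split. Of 14 genes of the TRiC chaperonin and its feeder prefoldin, 6 were higher and 4 lower, or 1 and 4 with the correction; the 4 lower calls were on the same genes and the 1 higher call was on another gene. The 6 higher calls became 3 without cKO-labelled library 2, 4 without any other library and 0 with the replicate block and the correction together. Pfdn1 had 423 and 434 normalized counts in the control libraries and 84.3 and 77.0 in the cKO-labelled ones (limma log2 difference -2.40, -2.20 corrected). Pfdn5 had -1.34 (-0.83 corrected), while the prefoldin subunit Vbp1 had 1.36, which turned to -0.05 with the correction. The TRiC subunit Cct4 had 0.73 (0.07 corrected). In mitochondria 3 of 12 genes were lower and 1 higher, and each library left out in turn gave 1 lower and 1 higher. The protease genes Clpp and Clpx had log2 differences of -1.21 and 1.31 (-0.19 and 0.72 corrected), and Lonp1 turned from -0.31 to 0.56 and was not called with any 1 library left out. With the correction 3 genes were lower and 2 higher, and none of the 3 lower calls was on a gene called lower without it.

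Relatives of the chaperones in the endoplasmic reticulum (ER) were mostly higher. Of 10 tested genes 8 were higher and 1 lower, with a median log2 difference of 1.07, or 6 higher and 1 lower with a median of 0.59 after the correction. Hsp90b1, the ER HSP90 known as GRP94, had 7060 and 5889 normalized counts in the control libraries and 16980 and 18888 in the cKO-labelled ones (limma log2 difference 1.47, 0.75 corrected). Hspa13, an ER HSP70, had 612 and 629 against 2004 and 2055 (limma log2 difference 1.71, 0.70 corrected). The exception was Sil1, an exchange factor for the ER HSP70, at -0.89 (-0.89 corrected, and not called without control library 1).

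Other genes described as HSF1 targets did not share 1 direction. Of 16 tested, 9 were lower and 6 higher, with a median log2 difference of -0.92, or 9 and 3 with a median of -0.56 after the correction (8 and 3 of them the same genes), and 8 to 9 lower with 1 library left out. The 6 higher calls became 4 without either control library and 3 without either cKO-labelled library. Ubb, which encodes polyubiquitin, fell, and had 5217 and 5626 normalized counts in the control libraries and 670 and 943 in the cKO-labelled ones (limma log2 difference -2.77, -1.999 corrected). Hspa4l and Chordc1, given above, led the rise. Of the other 5 tested heat shock factors and their binding proteins, 1 was called, Hsf2, which was higher. It had 162 and 123 against 273 and 270 normalized counts (limma log2 difference 0.94), which turned to -0.33 with the correction and was not called without control library 2 or either cKO-labelled library.

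**Figure D4:**
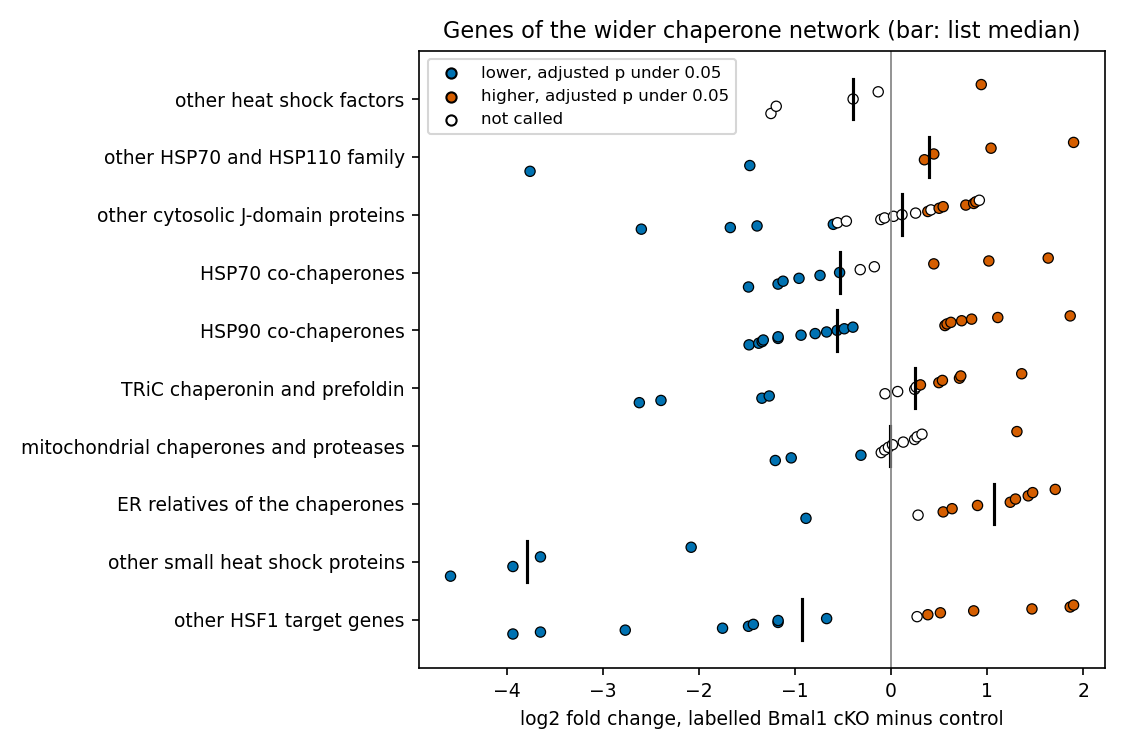
Log2 fold change, cKO-labelled minus control, of each tested gene on the 10 wider lists, with blue points called lower, orange points called higher, open points not called and a black bar at each list's median. The ER list has 8 of 10 points called higher, the 4 small heat shock proteins are all called lower, and the other lists hold points on both sides of 0.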

How the data were processed

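Colonic epithelial RNA of 2 control and 2 Bmal1 cKO-labelled mice was sequenced. Per the labels the authors aligned reads with STAR to GRCm38 and used DESeq2. The values they deposited are a signal, gene counts divided by 1 size factor per library. Counter, annotation release and strand setting are not given in the sources used here, and the labels and the study's methods name different library kits. The authors' fold changes, standard errors, test statistics, p-values and means were not used. Whole reads were recovered (100.0% of values within 0.1 of a whole multiple of the value of 1 read).

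The test was limma 3.58.1 (R 4.3.3, trend, two-sided) on log2(value + 1) of 13983 genes with a mean of at least 10, with Benjamini-Hochberg adjustment over all of them and a threshold of 0.05. Log2 differences are on that scale, which understates changes of low genes. Fold values and ratios of group means were taken from the normalized counts. GC content and length came from GENCODE M21 (16003 of 16015 genes matched), and each library was corrected by a robust loess with a span of 0.3. Alternatives were pseudocounts of 0.5 and 5, no filter or a mean of at least 50, 3 other scalings, the correction, edgeR 4.0.16 and DESeq2 1.42.0 on recovered reads, a replicate block, and each library left out. In simulated data without bias, 190 of 200 changed genes were recovered, with 5 unchanged genes called. With a simulated GC bias, 6076 unchanged genes were called uncorrected and 16 after the correction. The simulated bias depended on GC content alone and was independent of the changed genes, so its removal by the correction was fixed in advance. The simulated spread between mice was a set value, not taken from these data. The simulation therefore cannot tell whether the trend with GC content in these data is technical.

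The 10 genes and all lists were chosen with earlier results of these data known. The genes named beyond them are, per list, the 2 that fell most and the 2 that rose most among called genes with a mean of at least 100. A gene that this rule selects is not reported here. The labels give no batch. Intervals and the floor of 3 reads cover counting error or the spread between 2 mice only.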

Additional observations from a re-analysis of the deposited data

How the results depend on the processing

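Hsf1, Hspa1b, Hspb1, Hsp90aa1 and the summed pair Hspa1a plus Hspa1b kept their direction and call under all 16 alternatives. Over the 10 genes, 138 of 159 values kept direction and side of the threshold, 19 lost the call and 2 changed sign, both of them of Hsp90ab1, which was called in no setting (-0.0294 with scaling by the total of listed genes, -0.16 with quantile normalization). Hspa8 lost its call with total scaling (0.38) and with the block and correction together (0.60), Hspe1 with total scaling (0.27), quantile normalization (0.12) and the correction with or without the block (0.23), and Dnajb1 with the correction with or without the block (-0.03). The 5 higher calls of the 10 genes became 3 with total scaling, 3 with the block and correction together, and 2 to 4 with 1 library left out; the 3 lower calls became 2 to 3 with 1 library left out. Over all genes 3871 were lower and 4059 higher, which became 2373 and 2484 with the correction, 1982 and 2130 with the block and correction, and 2205 to 2852 and 2654 to 3154 with 1 library left out. Total scaling shifted the median of all genes from -0.04 to -0.26, with 4885 lower and 3091 higher; the median of the 10 genes was then 0.15. Among the genes named by rule, the correction turned Dnajb4 (-0.0733), Hsf2 (-0.33) and Vbp1 (-0.0518), which then did not pass, and Lonp1 (0.56), which was then called higher, with or without the block; over the 103 tested genes of the wider lists, 6 were called in opposite directions with and without the correction. The cause of these changes was not tested, apart from the correction, which removes the trend with GC content and length by construction.

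The replicate block, which pairs mice by number, left 3 lower and 5 higher calls among the 10 genes and gave 3789 lower and 3899 higher over all genes. The deviations of same-numbered mice had a correlation of -0.09 across 13983 genes, which cannot tell whether these mice shared a batch. No source ties the numbers, so the main test treated them as names only. Depth limits Hspa1a (20 to 25 reads per library) and the cKO-labelled values of Hspb1 (4 reads each).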
